A study of Rattus norvegicus with 3 samples.

Results

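The genes that carry tryptophan to nicotinamide adenine dinucleotide (NAD), together with the gene that recycles nicotinamide into it, were examined in rat renal proximal tubules. The set comprised Tdo2, Afmid, Kmo, Kynu, Haao, Acmsd, Qprt and Nampt, chosen by name, with every probe set that the annotation assigned to exactly 1 gene. All 8 genes were found, on 12 probe sets, out of 14217 named genes on 20826 such probe sets. Tubules came from the renal cortex of Sprague-Dawley rats, all male and 7 to 8 weeks of age. The labels name no treatment or allele beyond the isolation itself: intraperitoneal heparin (250 units) 30 minutes before decapitation, perfusion of the aorta with cold buffer and collagenase (10 ml of each, collagenase at 2 mg/ml), digestion for 20 minutes and a 42.5% Percoll gradient. There were 3 preparations, each measured on 1 Affymetrix array, and they formed 1 group with no control, so no difference between conditions could be tested. The labels do not say whether the preparations came from different animals or pools of animals, so the spread between arrays may be technical.

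In the kynurenine pathway, tryptophan is opened by a dioxygenase and shortened step by step to a semialdehyde that stands at a fork. From the fork the carbon either closes spontaneously to quinolinate, the precursor of NAD, or is decarboxylated by the product of Acmsd and burned. Liver and kidney are known as the organs that carry the whole downstream part of this route, and the dioxygenase of the first step, encoded by Tdo2, is known chiefly from liver. Nampt works outside the route: its enzyme joins nicotinamide, released when NAD is consumed, to a ribose phosphate and so starts the salvage pathway.

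The 3 arrays were of similar scale, with median signals of 34.9 to 37.4 over 31042 non-control probe sets and correlations of log2 signals across probe sets of 0.979 to 0.981. Signals are the deposited values on a linear scale. Probe sets differ in how strongly they bind. The level of a gene was set against the median of its array, which does not remove that difference. A difference in level or summed signal between genes or lists may therefore reflect binding. All 13 measured proximal tubule markers, among them Lrp2 and Slc34a1, exceeded the median of every array, with summed signals of 87453 to 97477 per array. Of the other marker lists, 5 of 6 thick ascending limb genes, 4 of 8 distal tubule and collecting duct genes and 4 of 4 endothelial genes also lay above it, against 2 of 9 macrophage and dendritic cell genes (Csf1r and Lyz2), 1 of 9 liver genes (Fga) and 0 of 3 neutrophil genes. Of all named genes, 61% lay above the median of every array. Summed signals per array were 10490 to 12564 for thick ascending limb, 1590 to 1932 for distal tubule and collecting duct, 585 to 1041 for endothelium, 711 to 884 for macrophage and dendritic cell, 198 to 296 for liver and 17.8 to 29.5 for neutrophil markers. What part RNA of these other cells had in the members' signals was not tested.

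Of the 8 genes, 7 lay above the median of every array, as did 61% of all named genes, and Tdo2 lay below it on each. The same 7 genes passed the 75th percentile of each array, which 36.4% of named genes did, and Tdo2 also lay below the 25th percentile, a line that 76% of named genes passed on each array. Counted by probe set, 11 of 12 lay above the median of every array, beside 45.8% of all non-control probe sets. The median level of the 8 genes was 4.56 on the log2 scale relative to the array median, beside 1.09 for all named genes. These levels are differences of log2(signal + 16) from the array's median probe set, and the brightest probe set stands for a gene in both counts.

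**Figure D1:**
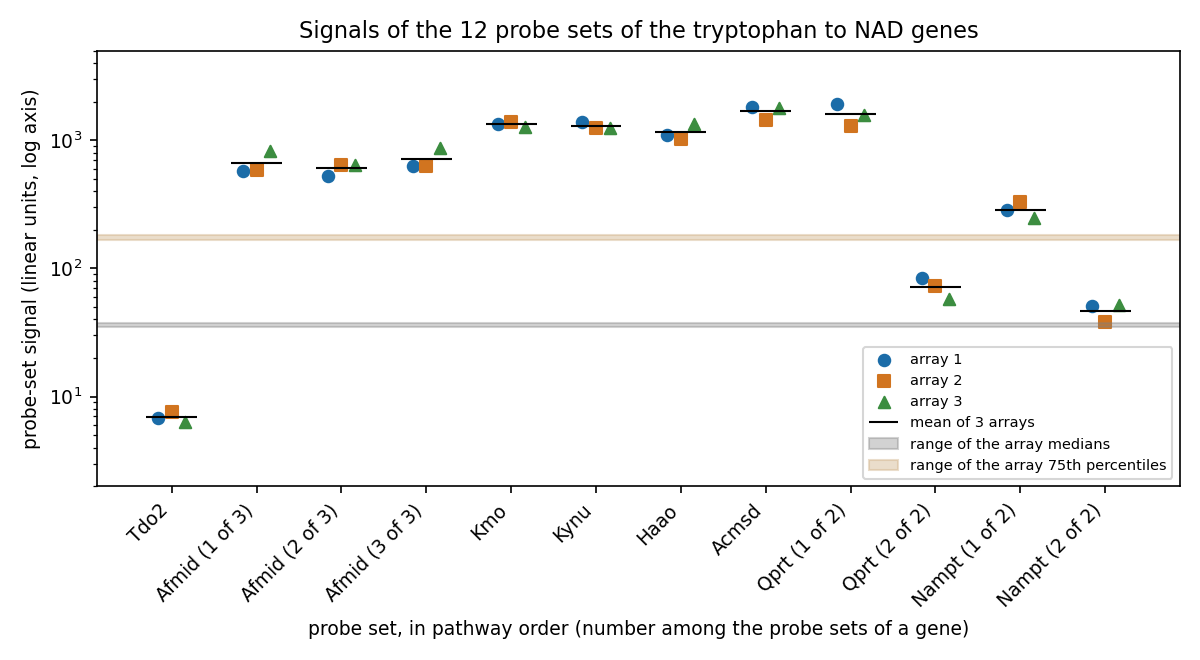
Signal of each of the 12 probe sets (vertical axis, linear units on a log axis) on arrays 1, 2 and 3 (circle, square and triangle), in pathway order, with the mean of 3 arrays as a bar. The grey band is the range of the array medians (34.9 to 37.4) and the tan band that of the 75th percentiles (167 to 181). Tdo2 lies under the grey band, the second probe sets of Qprt and Nampt lie between the bands, and the other 9 probe sets lie above the tan band.

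The first step is catalysed by tryptophan dioxygenase, the product of Tdo2. Its single probe set gave 6.82, 7.52 and 6.35 on arrays 1, 2 and 3, or 0.182 to 0.201 times the array median. All 3 values lay far under the median, with a level of -1.20 ± 0.02 (SD, n = 3) on the log2 scale. The log2 range over the arrays was 0.04 and became 0.11 with a pseudocount of 1. No detection call was made, and the values do not show that the transcript is absent. Of the 9 markers of liver, the organ where Tdo2 is best known, 8 did not exceed the median of every array. Of these, Apob (74.3, 43.7 and 25.1) and Arg1 (61.1, 29.5 and 42.9) exceeded it on 2 arrays and the other 6, such as Alb (18.2 ± 4.54, SD, n = 3), on none. Fga (71.7, 60.8 and 72.3 by its brighter probe set) exceeded it on all 3.

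Ido1, which encodes another dioxygenase able to open tryptophan, gave 18.5, 20.8 and 17.8 and was likewise under the median on all 3 arrays, at -0.58 ± 0.04 (SD, n = 3) on the log2 scale. Ido2 was not measured here. Both measured dioxygenases of the entry step were thus under the array median on all 3 arrays.

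Afmid encodes kynurenine formamidase, which removes the formyl group left by the dioxygenase. Its 3 probe sets gave 576, 590 and 826 (1394479_at), 528, 640 and 644 (1396300_at), and 631, 636 and 867 (1396301_x_at) on arrays 1, 2 and 3. All 3 probe sets lay at 14.2 to 24.9 times the array median, and the ratio of the brightest to the dimmest was 0.993 to 1.35. Array 3 was the highest in each. The last 2 probe sets were designed from the same transcript record and are not independent, and the suffix of the last marks probes that may bind related transcripts. The level of the gene was 3.78 ± 0.29 (SD, n = 3) on the log2 scale by its brightest probe set.

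Kmo encodes kynurenine monooxygenase, a flavoenzyme of the outer mitochondrial membrane that makes hydroxykynurenine. It gave 1352, 1378 and 1278, which is 36.4, 36.8 and 36.6 times the medians of arrays 1, 2 and 3. The log2 level was 4.69 ± 0.02 (SD, n = 3). Its log2 range of 0.04 over the arrays became 0.23 when the arrays were quantile normalized, so the closeness of the values depends on the scaling.

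Kynu encodes kynureninase, which uses pyridoxal phosphate to cleave hydroxykynurenine to hydroxyanthranilate. It gave 1399, 1238 and 1258, a level of 4.64 ± 0.09 (SD, n = 3) on the log2 scale. The arrays lay within a log2 range of 0.18, under the median range of 0.29 for the 8674 named genes above the array median.

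Haao encodes hydroxyanthranilate dioxygenase, the iron enzyme that opens the ring and yields the semialdehyde of the fork. It gave 1108, 1019 and 1343, with array 3 the highest, and a level of 4.47 ± 0.24 (SD, n = 3). Kmo, Kynu and Haao, which act in succession, thus each lay at 27.2 times the median or more on every array.

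The regions around the transcript starts of Tdo2, Kmo and Haao are shown, the first as that of the entry gene under the array median. Kmo and Haao were picked from the later genes after their sequences were read, because they hold the same run of letters. RefSeq windows of the GRCr8 assembly were available for 6 of the 8 genes (Tdo2, Afmid, Kmo, Kynu, Haao and Qprt). Each holds 250 bases before and 50 from the start; bases are counted from 1 to 300 and given in the direction of transcription. They lie at chr2:169585537-169585836 on the minus strand for Tdo2, chr13:90089271-90089570 on the plus strand for Kmo and chr6:16598075-16598374 on the plus strand for Haao. Capitals mark TATAAA in Tdo2 and CTTTGACC, the reverse complement of GGTCAAAG, in Kmo and Haao.
Tdo2: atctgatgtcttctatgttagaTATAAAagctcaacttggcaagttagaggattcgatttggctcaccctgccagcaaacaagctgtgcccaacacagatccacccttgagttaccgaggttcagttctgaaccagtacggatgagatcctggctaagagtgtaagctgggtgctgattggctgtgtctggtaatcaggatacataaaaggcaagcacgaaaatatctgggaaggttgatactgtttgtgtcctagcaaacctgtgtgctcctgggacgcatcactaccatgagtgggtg
Kmo: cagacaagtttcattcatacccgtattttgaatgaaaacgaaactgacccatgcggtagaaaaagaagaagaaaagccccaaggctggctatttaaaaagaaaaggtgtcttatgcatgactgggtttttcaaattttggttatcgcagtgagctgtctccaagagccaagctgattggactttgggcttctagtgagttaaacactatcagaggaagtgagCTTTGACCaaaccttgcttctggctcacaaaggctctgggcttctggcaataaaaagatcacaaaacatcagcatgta
Haao: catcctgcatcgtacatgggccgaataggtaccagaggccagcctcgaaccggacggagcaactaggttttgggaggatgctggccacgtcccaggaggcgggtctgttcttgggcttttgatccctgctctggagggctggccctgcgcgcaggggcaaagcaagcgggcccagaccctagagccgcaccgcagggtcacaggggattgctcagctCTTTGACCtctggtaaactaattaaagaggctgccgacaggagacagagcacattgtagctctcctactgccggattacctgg

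Exact letters were searched on both strands of the 6 windows and of all 33469 windows in the table. TATAAA was found in Tdo2 alone of the 6, at bases 23 to 28, and in 14.2% of all windows. Its first base in Tdo2 lay at -228 relative to the transcript start, near the far end of the window. GGTCAAAG, the inner letters of the direct repeat bound by Hnf4a and related receptors, was found in Kmo at bases 223 to 230 and in Haao at bases 218 to 225, and in 1.09% of all windows. It was searched after the sequences had been read. The windows of Kynu, Qprt and Afmid, whose genes also lay above the median of every array, did not hold it. The whole direct repeat with a spacer of 1 base, which can overlap those inner letters, was found in 0 of the 6 windows and in 18 of all. The palindrome bound by Hnf1 factors was found in 0 of the 6 and in 1 of all. A match describes letters only, and binding was not measured.

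At the fork, Acmsd encodes the decarboxylase that takes the semialdehyde away from quinolinate. It gave 1808, 1452 and 1779, or 38.8 to 51.02 times the array median, and a level of 5.01 ± 0.20 (SD, n = 3) on the log2 scale. Arrays 1 and 3 lay close together and array 2 lower.

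On the other arm, Qprt encodes the phosphoribosyltransferase that turns quinolinate into nicotinate mononucleotide and so commits it to NAD. Its brighter probe set (1372672_at) gave 1919, 1284 and 1582, a level of 4.92 ± 0.29 (SD, n = 3), with array 1 the highest and array 2 the lowest. Its other probe set (1382244_at) gave 84.7, 73.1 and 57.2, a level of 0.73 ± 0.20 (SD, n = 3), with array 3 the lowest. The probe sets disagreed by a ratio of 17.6 to 27.6, but both exceeded the median of every array. Both arms of the fork were therefore represented by genes above the median, and since the probe sets differ in binding, the signals do not give the balance between them.

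Nampt encodes nicotinamide phosphoribosyltransferase, the enzyme of NAD salvage. Its brighter probe set (1389014_at) gave 284, 328 and 247, a level of 2.52 ± 0.16 (SD, n = 3), with array 2 the highest. Its other probe set (1396262_at) gave 51.003, 38.1 and 51.5, with array 2 the lowest. On array 2 this probe set was only 1.02 times the median, and of the 12 probe sets it was the nearest to that line from above, whereas Tdo2 was the only one under it. The probe sets of Nampt disagreed by a ratio of 4.80 to 8.61 and did not share their highest array.

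Spread between the preparations was then compared with that of other genes. Of the 8 genes, 0 had a 2-fold or wider range between arrays, beside 4.46% of all named genes. Among genes above the median of every array, 1.37% did so. The 7 members in that class ranged by 0.04 (Kmo) to 0.58 (Qprt) on the log2 scale, and 2 of them, Kmo and Kynu, lay under the median range of 0.29. Each range rests on 3 values only.

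**Figure D2:**
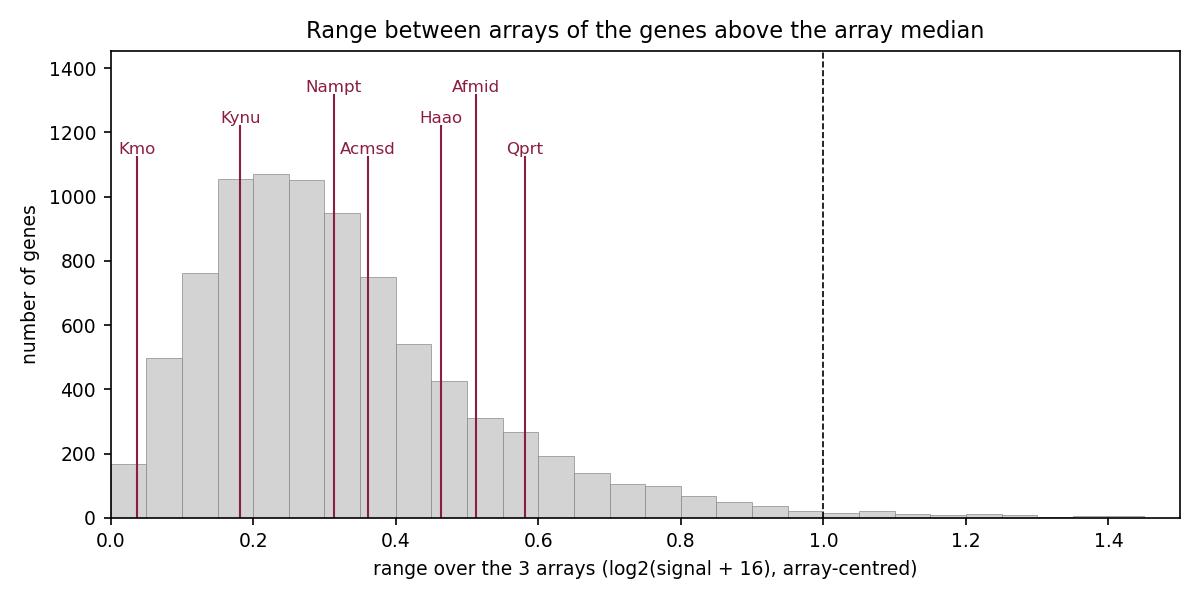
Number of genes (vertical axis) by the range of their log2(signal + 16) values over the 3 arrays after centring each array on its median (horizontal axis), for the 8674 named genes above the median of each array. Lines mark the 7 members of this class, from Kmo at 0.04 to Qprt at 0.58, and the dashed line marks 1 log2 unit. A further 27 genes lie beyond the right edge at 1.5.

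Array 2 was the lowest for Kynu, Haao, Acmsd and Qprt, whose deviations from their own means on that array were -0.09, -0.20, -0.23 and -0.32 on the log2 scale. Over the 8 genes the median deviation on array 2 was -0.13, beside -0.07 for all named genes above the array median and -0.11 for the proximal tubule markers. Negative median deviations on array 2 were also found for the thick ascending limb (-0.15) and distal tubule and collecting duct (-0.12) markers. They were -0.14 for macrophage and dendritic cell, -0.09 for liver, -0.05 for neutrophil and -0.03 for endothelial markers. The neutrophil and endothelial values were weaker than the -0.07 of all named genes above the array median. On array 1 the median deviation was lower still for endothelial (-0.43) and distal tubule and collecting duct (-0.16) markers. Most macrophage and dendritic cell, liver and neutrophil markers did not lie above the median of every array. The pseudocount narrows the ratios of dim genes. Whether the low values on array 2 were particular to a cell type was not tested. For beta-actin the 3' control signal over the 5' one, a sign of RNA quality, was 3.85, 3.28 and 3.66 on arrays 1, 2 and 3, lowest on array 2. For Gapdh the same ratio was 1.52, 1.52 and 1.40, lowest on array 3, so the 2 controls did not single out the same array. The part of RNA quality in these values was not tested. In bulk samples, fewer cells of a type and less RNA per cell cannot be told apart.

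On array 3, Afmid and Haao were the highest, with deviations of 0.34 and 0.27, while Nampt deviated by -0.15. Summed signals were also highest on array 3 for 3 marker lists. On arrays 1, 2 and 3 they were 585, 770 and 1041 for endothelium, 1711, 1590 and 1932 for distal tubule and collecting duct, and 797, 711 and 884 for macrophage and dendritic cell. Of the 4 endothelial genes, Tek was highest on array 2. Aqp3 (940, 808 and 858), the brightest gene of the distal tubule and collecting duct list, was highest on array 1. The rest of that list was highest on array 3 by brightest probe set. The macrophage and dendritic cell sum was largely Lyz2 (623, 580 and 732). In that list Cd68, Itgam, Aif1 and Mrc1 were highest on array 1, Adgre1 on array 2, and Cd163, Csf1r, Ptprc and Lyz2 on array 3. On array 1, Qprt deviated by 0.27, and the 18 control probe sets added at hybridization had a median deviation of 0.14 there, against -0.07 on array 2 and -0.08 on array 3. The part of these differences in the members' values was not tested, and with 1 array per preparation none of the deviations can be tested.

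**Figure D3:**
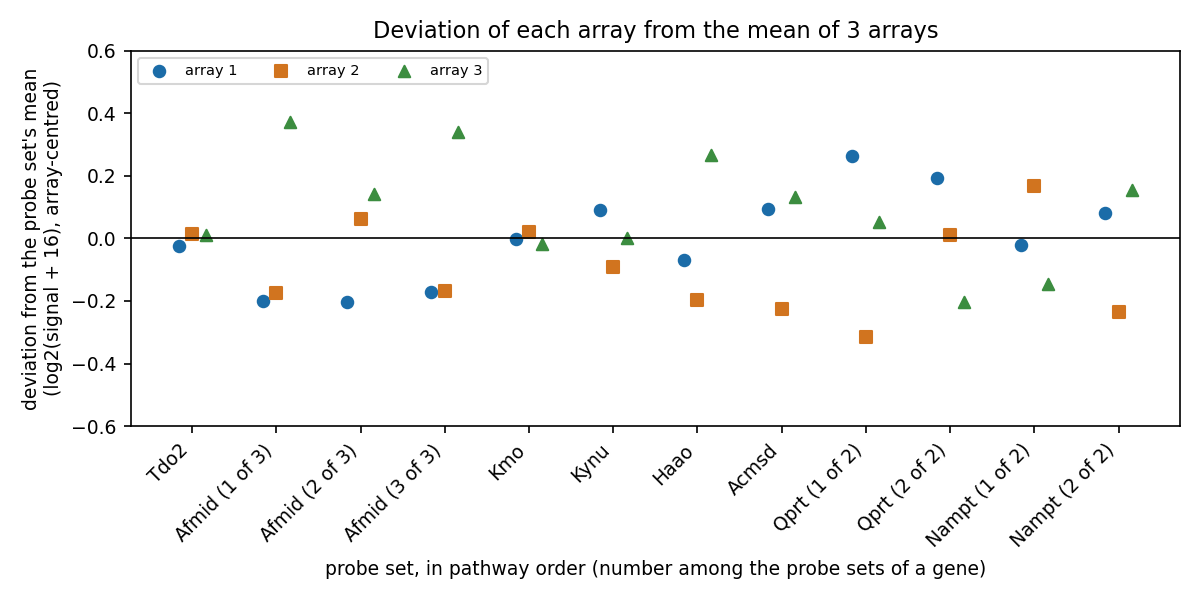
Deviation of each array from the mean of 3 arrays (vertical axis, log2(signal + 16) centred on the array median) for the 12 probe sets in pathway order, with arrays 1, 2 and 3 as circle, square and triangle. Tdo2 and Kmo deviate by -0.02 to 0.02, all 3 probe sets of Afmid are highest on array 3, and the 2 probe sets of Nampt are ordered differently. The signals of Tdo2 lie under the added 16, which narrows its deviations. By raw signal its highest array over its lowest was 1.18, against 1.08 for Kmo.

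The neighbouring steps were taken from 6 lists of 41 other genes, of which 32 were measured. Of these, 24 lay above the median of every array (75%, beside 61% of all named genes), 7 lay under it on all 3, and Nmnat2 lay on both sides. By log2(signal + 16), a 2-fold or wider range between arrays was found for 2 of the 32, beside 4.46% of all named genes. They were Nmnat2 (1.60 on the log2 scale) and Bst1 (1.14). The added 16 narrows the ratios of dim genes. By raw signal the highest array over the lowest also exceeded 2 for Slc22a13 (9.61), Nmrk2 (5.40), Aox1 (2.99) and Slc7a5 (2.26), all under the median. The lists are described by their members, and no test was made of them. Where a gene had several probe sets, its brightest is given below, and the closing section gives how far they disagreed.

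Kynurenine can leave the route by transamination to kynurenate. All 4 measured aminotransferase genes lay above the median on all 3 arrays, as did 61% of all named genes. Kyat1 gave 3128, 2474 and 3255. Got2, which also serves the malate-aspartate shuttle, gave 4466, 3871 and 4377 by its brighter probe set and 77.3, 43.7 and 39.0 by the other. Aadat, which also acts in lysine breakdown, gave 1136, 958 and 1414. Kyat3 gave 308, 205 and 383, with a log2 range of 0.92 that came near the 2-fold mark. Array 2 was the lowest for each of these 4 genes, as it was for Kynu, Haao, Acmsd and Qprt but not the other members. The median deviation on array 2 was also negative for all named genes above the array median (-0.07) and for the proximal tubule markers (-0.11). Low values on that array were thus not particular to these genes.

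Beyond Acmsd, the carbon passes through oxoadipate and glutaryl-CoA, steps shared with lysine breakdown. Dhtkd1, a subunit of the oxoadipate dehydrogenase, gave 2203 ± 120 and Gcdh, the glutaryl-CoA dehydrogenase gene, gave 4015 ± 408 (SD, n = 3 each). Aldh8a1, the aldehyde dehydrogenase gene between Acmsd and these steps, was not measured here. Both measured genes of this arm lay above the median on all 3 arrays, as did 61% of all named genes.

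The other routes to NAD and NADP were represented by 8 of 10 genes above the median of every array (80%, beside 61% of all named genes). Naprt, which starts NAD synthesis from nicotinate, gave 3633, 3570 and 3831, and Nadsyn1, which adds the amide at the last step from quinolinate or nicotinate, gave 333, 313 and 366. Of the enzymes that join the mononucleotides to adenylate, the nuclear form Nmnat1 gave 110 ± 14.8 and the mitochondrial form Nmnat3 gave 341 ± 7.78 (SD, n = 3 each), both above the median on all 3 arrays. Nmnat2, a form best known from neurons, gave 7.26, 54.8 and 40.5, so that array 1 lay under the median and the others above it. The NAD kinases Nadk (830 ± 19.1) and Nadk2 (299 ± 56.5), the phosphorylase gene Pnp (920 ± 108) and the riboside kinase gene Nmrk1 (242 ± 66.5) lay above the median (SD, n = 3 each). Nmrk2, the riboside kinase of muscle, gave 27.8, 9.25 and 5.14 and lay under it on all 3 arrays.

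Among genes that consume NAD or remove nicotinamide, 5 of 8 lay above the median of every array (62.5%, near the 61% of all named genes). They were the polymerases Parp1 (565 ± 28.7) and Parp2 (136 ± 16.5), the mitochondrial deacylases Sirt3 (391 ± 14.9) and Sirt5 (328 ± 12.8), and the nicotinamide methyltransferase gene Nnmt, which gave 45.5, 41.4 and 56.2 and so lay close to the line. Bst1, a cell-surface enzyme that splits NAD, gave 1.64, 4.52 and 21.1. Sarm1, an NAD hydrolase known from axons, gave 12.4 ± 2.17, and Aox1, which oxidises methylnicotinamide, gave 4.45 ± 2.14 (SD, n = 3 each). These 3 lay under the median on all 3 arrays.

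Among carriers, Cltrn, the brush border partner of a neutral amino acid transporter, gave 9116 ± 808, and Slc7a8 and Slc3a2, which form a basolateral exchanger, gave 1122 ± 154 and 4329 ± 247 (SD, n = 3 each). Slc16a10, a carrier of aromatic amino acids, gave 228, 282 and 272. Slc7a5, the other light chain that pairs with Slc3a2 for tryptophan, gave 17.5, 22.03 and 9.75, under the median on all 3 arrays. Slc22a13, known in human as a carrier of nicotinate and urate, gave 12.2, 1.27 and 9.97 and was also under it. Ddc, the decarboxylase that makes dopamine in this epithelium and can also act on hydroxytryptophan, gave 3863, 3441 and 4055.

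**Figure D4:**
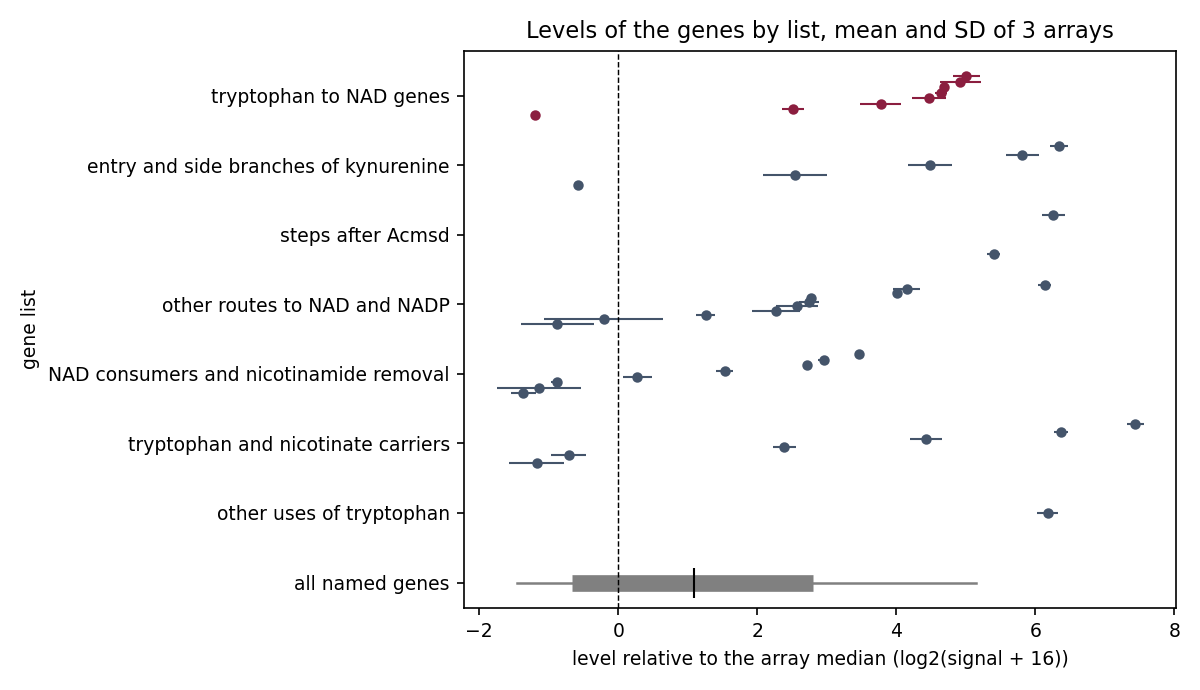
Level of each measured gene relative to the array median (horizontal axis, log2(signal + 16)), as mean and SD of 3 arrays, by list (vertical axis). For all named genes the thick bar spans the 25th to 75th percentile, the thin line the 5th to 95th and the tick the median of 1.09. Of the 8 members at the top, 7 lie right of the array median (dashed line), and Tdo2 lies left of it at -1.20.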

How the data were processed

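Probe-set intensities of 3 Affymetrix rat arrays were deposited by the authors as signals on a linear scale (31099 probe sets, of which 57 were controls). Per the labels' protocols, Trizol RNA was made into biotin-labelled cRNA; the summarisation software and the scaling are not given in the sources used here, and values were taken as deposited. By the platform annotation, 20826 probe sets carried a single gene, 436 carried several and were left out, and for 9780 no gene was named here. By gene identifier, 20758 matched a RefSeq table (GRCr8), which changed 0 symbols. A gene took the value of its probe set of highest mean signal.

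Levels were computed as log2(signal + 16) minus that of the array's non-control median, with a call above the median on all 3 arrays and a second call at a range of 1 log2 unit (2-fold). Both calls were run on simulated data as a check of the code only. The simulated noise was smaller than the spread between the real arrays. The first call was checked only on genes already placed above the line. The simulation therefore does not give the error of the calls in these data. Python 3.11.15, pandas 2.3.3 and numpy 2.4.6 were used. No statistical test was made, since there was 1 group, and no detection calls were used. The members and lists were chosen with earlier results of these data known. All members and every measured gene of the pathway lists could be named. No gene was sought for a pattern like the members', since 3 arrays are too few for a correlation. The alternatives are given in the closing section.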

Additional observations from a re-analysis of the deposited data

How the results depend on the processing

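The count of 7 of 8 members above the line stayed at 7 with the line at the 25th percentile (passed by 76% of named genes) or the 75th percentile, with averaged probe sets, without probe sets of a shared-transcript suffix, after quantile normalization, and without replicate 1, 2 or 3. The count of 0 members ranging 2-fold stayed at 0 with pseudocounts of 1 and 64, without centring, after quantile normalization, with averaged probe sets, among genes above the median only, and without each replicate. Both stayed so with each gene's dimmest probe set, an alternative chosen after seeing the data. Some of these alternatives could not have gone the other way. For a given probe set, leaving out a replicate cannot widen a range, and keeping only genes above the median can only remove calls. Neither could therefore raise the count of 0. Likewise, for a given probe set, a line at the 25th percentile or fewer replicates could not lower the count of 7. The 24 other pathway genes above the median became 27 and 21 with the lines at the 25th and 75th percentiles, ranged from 24 to 25 without 1 replicate, and stayed at 24 otherwise (of 31 measured without suffixed probe sets). The pseudocount moved the log2 levels of all 8 members by more than their SD. With 1 and 64 they were -2.25 and -0.50 for Tdo2, 4.23 and 2.93 for Afmid, 5.16 and 3.80 for Kmo, 5.11 and 3.76 for Kynu, 4.94 and 3.59 for Haao, 5.48 and 4.11 for Acmsd, 5.39 and 4.03 for Qprt, and 2.93 and 1.80 for Nampt, with no change of sign. Without replicate 3, the log2 range of Afmid fell to 0.0042, against 0.51 with all arrays, and that of Haao to 0.13, against 0.46. Without replicate 2 the range of Acmsd was 0.04, against 0.36, that of Qprt 0.21, against 0.58, that of Kynu 0.09, against 0.18, that of Nampt 0.13, against 0.31, and that of Kmo 0.02, against 0.04. Without replicate 1 the range of Tdo2 was 0.0033, against 0.04. The range of Tdo2 was 0.11 with a pseudocount of 1, that of Kmo 0.02 with 1 and 0.07 with 64, and under quantile normalization that of Kmo was 0.23 and that of Kynu 0.06. No paired analysis was possible because all arrays belong to 1 group.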

Other observations

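Of the 32 other pathway genes, 6 had several probe sets, and their brightest and dimmest signals disagreed by a ratio of 3.38 (Nadk) to 112 (Got2). For Ddc the ratio was 46.2 to 50.8 over the arrays, for Gcdh 22.9 to 28.9, for Pnp 14.04 to 26.4 and for Naprt 4.44 to 5.03. The dimmest probe set of each of the 6 still exceeded the median of every array, the nearest to the line being that of Pnp, at 37.1 to 56.6. Among the members, 3 genes had several probe sets, with ratios of up to 27.6 for Qprt, 8.61 for Nampt and 1.35 for Afmid.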
